A study of Mus musculus with 8 samples.

Results

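The regions described here are the H3K9me3 peaks of wild-type mouse embryonic fibroblasts that also carry H4K20me3. They were chosen by the called positions of the WT lists, as the H3K9me3 peaks that share at least 1 bp with a WT H4K20me3 peak, and 1268 of 14596 met this rule (8.69%, exact 95% interval 8.24 to 9.16%). They lay on 1197 of the 11295 WT H4K20me3 peaks. Because both WT lists were used to choose them, the layout, length and spacing of these peaks are given as a description with no test. The KO lists had no part in the choice.

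Mouse embryonic fibroblasts (MEF) are connective tissue cells grown from embryos. The groups were H3K9me3 in KAP1 KO cells, H3K9me3 in WT cells, H4K20me3 in KAP1 KO cells, H4K20me3 in WT cells and KAP1 in WT cells, with 1 ChIP-seq library each. The labels give the genotype as KAP1 KO or WT and name no strain, age, allele or way of making the knockout. No KAP1 library of KO cells was analysed here, so the knockout itself was not checked, and peak lists hold no expression by which the cell type could be checked. The lists held 3176 H3K9me3 peaks in KO cells and 14596 in WT cells, 8920 H4K20me3 peaks in KO cells and 11295 in WT cells, and 372 KAP1 peaks in WT cells.

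KAP1 (TRIM28) is brought to chromatin by KRAB zinc finger proteins. There it recruits the histone methyltransferase SETDB1, which trimethylates lysine 9 of histone H3. In heterochromatin, HP1 proteins bind H3K9me3 and can recruit the SUV4-20H enzymes, which trimethylate lysine 20 of histone H4. Both marks are known from silent repeats and other repressed chromatin, and the series title asks about the part of KAP1 in restoring heterochromatin after replication.

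A peak is a stretch in which the authors' peak caller, MACS, found more reads than in the local background. Each peak has a score, which is the authors' own value and is used here to rank peaks within a list. With 1 library per group there is no replicate error and no test between genotypes. The exact (Clopper-Pearson) 95% intervals printed with shares cover counting error over peaks alone, and neighbouring peaks are not independent. The number of reads under a peak is not in the lists, and a peak that was not called does not show that the mark was absent.

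In WT cells, H4K20me3 lay over the larger part of most of these H3K9me3 peaks. The median H3K9me3 peak had 80.5% of its length under H4K20me3 and shared 510 bp with it, with quartiles of 345 and 780 bp. At least 50% of the peak was covered in 988 of the 1268 (77.9%, interval 75.5 to 80.2%), and under 10% in 30. A single H4K20me3 peak was met by 1177 H3K9me3 peaks, and 91 met several, up to 4. In the other direction, 151 H4K20me3 peaks reached over 2 or more of the H3K9me3 peaks, up to 6 of them. Joined wherever they overlapped, the peaks of both marks formed 1093 loci, of which 882 held 1 peak of each mark. The median locus spanned 1160 bp.

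Neither mark enclosed the other in the most frequent arrangement. The peaks were staggered in 604 cases (47.6%, interval 44.9 to 50.4%), with H3K9me3 reaching further towards lower coordinates in 303 and towards higher coordinates in 301. The H3K9me3 peak lay wholly inside 1 H4K20me3 peak in 372 cases (29.3%, interval 26.8 to 31.9%). The H4K20me3 peak lay wholly inside the H3K9me3 peak in 201 cases (15.9%, interval 13.9 to 18.0%). The remaining 91 H3K9me3 peaks (7.18%) met several H4K20me3 peaks.

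Which mark extended further depended on whether peaks or bases were counted. Of the 1177 H3K9me3 peaks that met a single H4K20me3 peak, H3K9me3 was longer in 439 (37.3%, interval 34.5 to 40.1%). H4K20me3 was longer in 736 (62.5%, interval 59.7 to 65.3%). Some of the 1177 shared their H4K20me3 peak with another H3K9me3 peak, since only 882 loci held 1 peak of each mark. Such an H4K20me3 peak was counted in full for each, which favours H4K20me3 in these lengths and ends. Left out of these values are the 91 H3K9me3 peaks that met several H4K20me3 peaks, which were long, with a median of 1703 bp. How much the sharing and this omission change the values was not tested. The length of H3K9me3 minus that of H4K20me3 had a median of -130 bp, with quartiles of -565 and 166 bp. H3K9me3 reached further at 1005 of the 2354 ends (42.7%), by a median of 210 bp, and H4K20me3 at 1346 ends (57.2%), by a median of 274 bp. Both marks ended within 200 bp of each other at 1031 ends (43.8%), which is a distance no longer than the shortest sonicated fragments stated in the labels' protocols. Summed over the loci, the order was the other way. H3K9me3 covered 1.32 Mb, or 78.7% of the bases with either mark, and H4K20me3 covered 1.26 Mb, or 75.0%. Both marks lay together over 0.901 Mb (53.7%), H3K9me3 alone over 0.418 Mb (25.0%) and H4K20me3 alone over 0.357 Mb (21.3%). By locus, which counts each peak of either mark once, H3K9me3 covered more bases at 511 loci (46.8%). H4K20me3 covered more at 580 (53.1%, interval 50.1 to 56.1%).

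**Figure D1:**
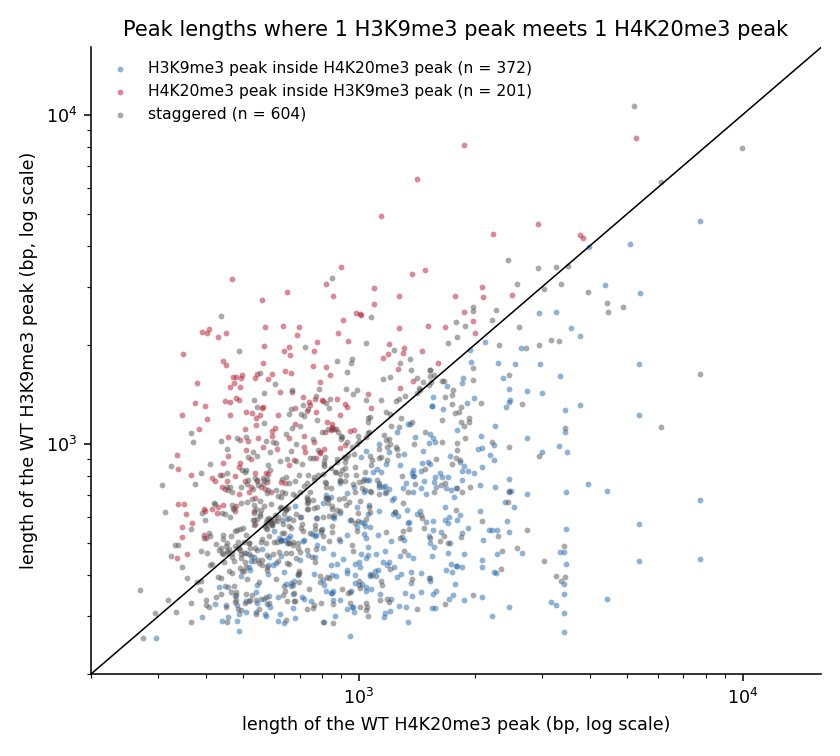
Length of the WT H3K9me3 peak (vertical, bp, log scale) against the length of the WT H4K20me3 peak it meets (horizontal, bp, log scale), 1 point for each of 1177 H3K9me3 peaks that meet a single H4K20me3 peak. The black line marks equal length, and 736 points have the longer H4K20me3 peak. An H4K20me3 peak shared by several H3K9me3 peaks is drawn for each of them.

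The layout went with the length of the H3K9me3 peak. Of the 344 H3K9me3 peaks under 500 bp, 169 lay inside an H4K20me3 peak (49.1%) and 2 held an H4K20me3 peak (0.581%). Of the 111 from 2000 to under 5000 bp, 10 lay inside an H4K20me3 peak (9.01%) and 43 held one (38.7%). All 3 classes above 1000 bp had a lower median cover by H4K20me3 than the shortest peaks, at 64.6%, 70.8% and 61.1% against 97.9%. H3K9me3 peaks inside an H4K20me3 peak had a median length of 525 bp, and the H4K20me3 peaks around them 1283 bp. H3K9me3 peaks that held an H4K20me3 peak had a median of 1295 bp, and the H4K20me3 peaks in them 610 bp.

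The enclosing peak also ranked higher in its own list. For H3K9me3 inside H4K20me3, the median percentile of score was 62.1 in the H3K9me3 list and 69.1 in the H4K20me3 list. For H4K20me3 inside H3K9me3, it was 95.9 in the H3K9me3 list and 22.2 in the H4K20me3 list. Longer peaks also tended to score higher, so width and strength cannot be told apart here.

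Named examples of each layout are the regions with the longest shared stretch. Among H3K9me3 peaks inside H4K20me3, the longest shared stretch was 4765 bp on chromosome 10, where H3K9me3 from 79200172 to 79204936 lay within H4K20me3 from 79197894 to 79205637. On chromosome 12, H3K9me3 from 114013620 to 114017583 and H4K20me3 from 114013611 to 114017592 differed by 18 bp in all. Among H4K20me3 peaks inside H3K9me3, the longest lay on chromosome 17, where H4K20me3 from 95214375 to 95219649 covered 5275 bp of an H3K9me3 peak of 8474 bp from 95214266 to 95222739. The longest shared stretch of a staggered pair was 5928 bp on chromosome 8, with H3K9me3 from 20019084 to 20026981 and H4K20me3 from 20015067 to 20025011. There H3K9me3 reached 1970 bp further to one side and H4K20me3 4017 bp further to the other. These examples were chosen for their length and are far above the median shared stretch of 510 bp. Some of the same class had longer H3K9me3 in KO cells. At the staggered pair on chromosome 8, H3K9me3 measured 12802 bp in 3 KO peaks and 7898 bp in WT, while H4K20me3 measured 3003 bp in KO and 9945 bp in WT. On chromosome 10, from 57685618 to 57689847, H3K9me3 measured 6127 bp in KO and 4230 bp in WT, and H4K20me3 3512 bp in KO and 3824 bp in WT. By contrast, neither mark was called in KO cells at the regions with long shared stretches on chromosome 8 from 125949476 to 125953795, chromosome 13 from 12904406 to 12907886 and chromosome 7 from 24889179 to 24892621.

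The H3K9me3 peaks with H4K20me3 were longer than the others of the list. Their median length was 718 bp (quartiles 479 and 1160 bp, longest 15085 bp), against 446 bp for the 13328 WT H3K9me3 peaks without H4K20me3 (quartiles 348 and 619 bp, longest 12044 bp). A longer peak has more bases at which an overlap can fall. The share of H3K9me3 peaks with H4K20me3 was 4.12% under 500 bp, 10.8% from 500 to under 1000 bp, 24.0% from 1000 to under 2000 bp, 44.8% from 2000 to under 5000 bp and 39.5% at 5000 bp or more. Their median score was 133, against 72.1 for the others. All 10 of the highest-scoring H3K9me3 peaks carried H4K20me3, as did 75 of the highest 100 and 238 of the highest 500. The H4K20me3 peaks on them were close to the other WT H4K20me3 peaks in median length and lower in median score. Their median length was 799 bp, against 763 bp for H4K20me3 peaks elsewhere, and their median score 120, against 170.

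The rule turns on single bases at its edge. The 5 H3K9me3 peaks with the smallest overlap shared 2 to 12 bp with H4K20me3, were 436 to 812 bp long and scored 85.9 to 169. The 5 nearest peaks that shared none lay 2 to 6 bp from H4K20me3, were 409 to 596 bp long and scored 77.9 to 111. Neither mark was called at any of these 10 in KO cells. Within 1 kb of an H4K20me3 peak but without overlap lay 419 further H3K9me3 peaks.

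The H3K9me3 peaks with H4K20me3 often stood beside another H3K9me3 peak. The gap to the nearest other WT H3K9me3 peak had a median of 994 bp, against 5206 bp for H3K9me3 peaks without H4K20me3. It was at most 1 kb for 635 of 1268 (50.1%), against 4701 of 13328 (35.3%). Within classes of length this difference was large for the shortest peaks and small for long ones. Under 500 bp, 49.1% had a neighbour within 1 kb, against 30.3% of the others, and from 1000 to under 2000 bp 49.6% had one, against 52.0%. The gap to the nearest other H3K9me3 peak that itself carried H4K20me3 had a median of 28611 bp and was at most 1 kb for 437 (34.5%). With H3K9me3 peaks up to 1 kb apart joined, the 1268 fell into 1001 stretches, of which 633 were a single peak and 368 held 2 or more. Those stretches held 434 further H3K9me3 peaks without H4K20me3, and the fullest held 11 peaks.

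Their distribution along the genome was wide. They lay in 608 of the 2277 windows of 1 Mb that held a WT H3K9me3 peak, and 322 of these windows held a single one. The 46 windows with 5 or more held 332 of them. The window with most was 145 to 146 Mb of chromosome 4, with 21 among 232 WT H3K9me3 peaks. Next came 149 to 150 Mb of chromosome 6, with 13 among 32, and 81 to 82 Mb of chromosome 10, with 12 among 141. H3K9me3 was called in KO cells at 2, 1 and 0 of the peaks with H4K20me3 in these windows, in that order, and H4K20me3 at 4, 1 and 0. All 20 of the chromosomes 1 to 19 and X held some, 1263 in all. The other 5 lay on the sequences named 4_random, Un_random and 9_random in the lists. There H3K9me3 was called in KO cells at 2 of 2, 2 of 2 and 0 of 1, in that order. The share of WT H3K9me3 peaks with H4K20me3 was highest on chromosome 17, at 128 of 1013 (12.6%, interval 10.7 to 14.8%), and lowest on chromosome X, at 3 of 195 (1.54%, interval 0.318 to 4.43%). Chromosome X held 170 WT H4K20me3 peaks beside its 195 WT H3K9me3 peaks, and chromosome 17 held 729 beside its 1013. Chromosome 18, also with 170 WT H4K20me3 peaks, had 5 of 146 (3.42%, interval 1.12 to 7.81%). Why the share was low on chromosome X was not tested.

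In KO cells, most of these regions had neither mark called. No KO peak of either mark overlapped 1139 of the 1268 H3K9me3 peaks (89.8%, interval 88.0 to 91.4%), while the share over all WT H3K9me3 peaks was 96.4%. Both marks were called at 46 (3.63%, interval 2.67 to 4.81%; 0.576% over all). H3K9me3 alone was called at 33 (2.60%, interval 1.80 to 3.64%; 2.52% over all). H4K20me3 alone was called at 50 (3.94%, interval 2.94 to 5.17%; 0.541% over all). Counted by mark, H3K9me3 was called in KO cells at 79 (6.23%) and not called at 1189 (93.8%), with 3.10% called and 96.9% not called over all WT H3K9me3 peaks. H4K20me3 was called in KO cells at 96 (7.57%, interval 6.18 to 9.17%), with 1.12% over all WT H3K9me3 peaks, most of which carried none in WT, and 65.6% of all WT H4K20me3 peaks called again.

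H4K20me3 was called in KO cells more often at regions where H3K9me3 was called too. Where H3K9me3 was called in KO cells, H4K20me3 was called at 46 of 79 (58.2%, interval 46.6 to 69.2%). Where H3K9me3 was not called, H4K20me3 was called at 50 of 1189 (4.21%, interval 3.14 to 5.51%). Over all WT H3K9me3 peaks these shares were 18.6% and 0.559%. Among those without H4K20me3 in WT they were 38 of 373 (10.2%, interval 7.31 to 13.7%) and 29 of 12955 (0.224%, interval 0.150 to 0.321%), so the calls went together there as well. The KO peaks of the marks overlapped each other at 42 of the 46 regions with both. Length went with this result. The median length was 1281 bp where both marks were called in KO cells, 1059 bp for H3K9me3 alone, 739 bp for H4K20me3 alone and 708 bp for neither, and the part of length in the joint calls was not tested.

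The higher share of H3K9me3 calls in KO cells was not seen in every class of length. Under 500 bp, H3K9me3 was called in KO cells at 9 of 344 regions with H4K20me3 (2.62%, interval 1.20 to 4.91%), against 106 of 8002 without (1.32%, interval 1.09 to 1.60%). From 500 to under 1000 bp it was 24 of 522 (4.60%), against 138 of 4293 (3.21%). From 1000 to under 2000 bp it was 21 of 276 (7.61%, interval 4.77 to 11.4%), against 89 of 873 (10.2%, interval 8.27 to 12.4%). From 2000 to under 5000 bp it was 19 of 111 (17.1%, interval 10.6 to 25.4%), against 35 of 137 (25.5%, interval 18.5 to 33.7%). At 5000 bp or more it was 6 of 15, against 5 of 23. The intervals overlapped in each of the 5 classes, and the direction differed between them. For H4K20me3, which those others lacked in WT, the share in KO cells was the higher one in the regions with H4K20me3 in each class, from 5.23% against 0.187% under 500 bp to 26.7% against 8.70% at 5000 bp or more.

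**Figure D2:**
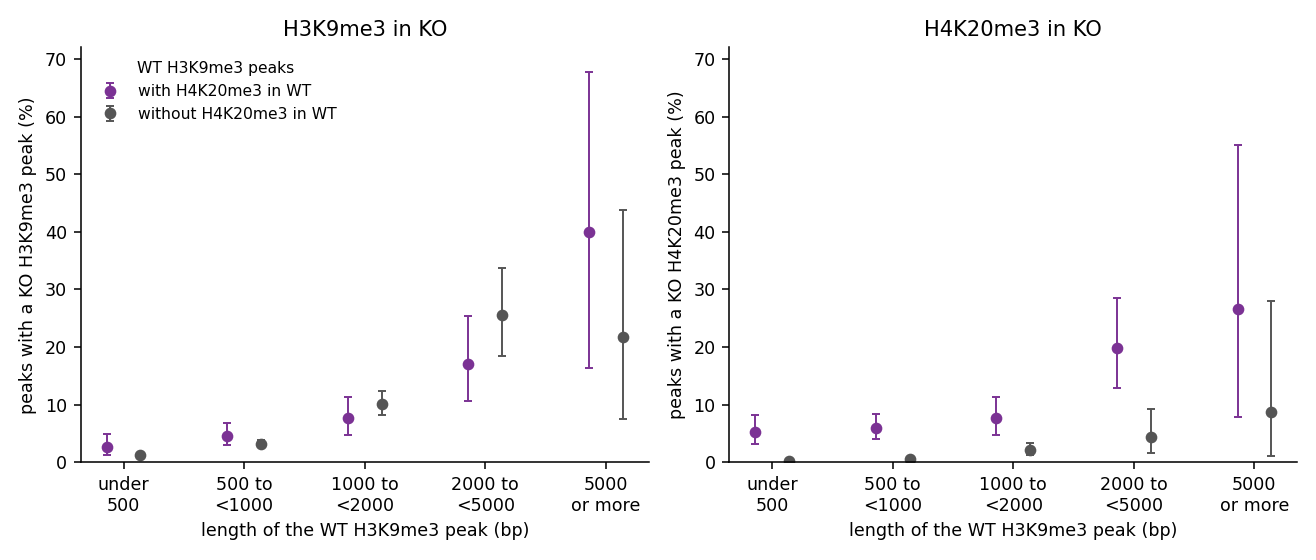
Share of WT H3K9me3 peaks (%) overlapped by a KO H3K9me3 peak (left) or a KO H4K20me3 peak (right), by length of the WT H3K9me3 peak in bp, for peaks with H4K20me3 in WT (purple) and without it (grey); bars are exact 95% intervals. The H3K9me3 share grew with length in the first 4 classes of both kinds of peak and was 17.1% against 25.5% from 2000 to under 5000 bp.

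In both nested layouts, the mark that enclosed the other in WT cells was the one more often called in KO cells, on few calls. Where H3K9me3 lay inside H4K20me3, the KO lists had H3K9me3 at 16 of 372 (4.30%, interval 2.48 to 6.89%) and H4K20me3 at 38 (10.2%, interval 7.33 to 13.8%). Where H4K20me3 lay inside H3K9me3, they had H3K9me3 at 19 of 201 (9.45%, interval 5.79 to 14.4%) and H4K20me3 at 11 (5.47%, interval 2.76 to 9.58%), and these intervals overlapped. Within a layout both marks are counted on the same regions, so separate intervals do not compare the marks. H4K20me3 alone was called at 25 and H3K9me3 alone at 3 where H3K9me3 lay inside. Where H4K20me3 lay inside, H3K9me3 alone was called at 11 and H4K20me3 alone at 3. Staggered pairs lay between, with 38 of 604 (6.29%) for H3K9me3 and 39 (6.46%) for H4K20me3. The share with neither mark was alike across layouts, at 89.0%, 89.1% and 90.7%. Length and score moved with the layout, as given above, and their part in these shares was not tested.

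The H3K9me3 score in WT went with the calls of both marks in KO cells, and the H4K20me3 score with those of H4K20me3. Of the 317 regions with the highest H3K9me3 score, 42 had H3K9me3 called in KO cells (13.2%, interval 9.72 to 17.5%), and of the 317 with the lowest, 8 (2.52%, interval 1.10 to 4.91%). H4K20me3 was called at 42 of the highest 317 too (13.2%, interval 9.72 to 17.5%) and at 19 of the lowest (5.99%, interval 3.65 to 9.20%). The median length of these sets was 1683 and 384 bp, and its part was not tested. Of the 317 with the highest H4K20me3 score, 51 had H4K20me3 called (16.1%, interval 12.2 to 20.6%), and of the lowest 317, 11 (3.47%, interval 1.74 to 6.12%). H3K9me3 was called in KO cells at 20 of the 317 with the highest H4K20me3 score (6.31%) and 21 of the lowest (6.62%).

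Where H3K9me3 was called again, its summed KO length was near the WT length at the median, while H4K20me3 peaks were more often shorter. The 79 regions with H3K9me3 in KO cells met 83 KO peaks, 2.61% of that list. Their summed KO length was a median of 1.00 times the WT length (quartiles 0.540 and 1.26), shorter at 38 and longer at 40. KO peaks were measured in full, also where they reached beyond the region. Of the region itself, KO H3K9me3 covered a median of 82.1%, and it covered the whole region at 19 of the 79. The 96 regions with H4K20me3 in KO cells met 90 KO peaks, 1.01% of that list. Their KO length was a median of 0.796 times the WT H4K20me3 length (quartiles 0.448 and 1.07), shorter at 65 and longer at 31. KO H4K20me3 covered a median of 71.6% of the region, and the whole region at 18 of the 96. Within the KO H3K9me3 list, the strongest KO peak at each of the 79 regions had a median percentile of score of 94.1, and their WT peaks one of 95.8 within the WT list. For H4K20me3 these medians were 29.5 in the KO list and 75.1 in the WT list. The lists differ in length and their read depth is unknown, so percentiles of different lists are not a measure of change.

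Some high-scoring regions had H3K9me3 peaks of nearly the same length in both genotypes. On chromosome 10, the WT H3K9me3 peak from 7230779 to 7235418 held an H4K20me3 peak of 2932 bp. Its KO H3K9me3 peak was 4662 bp long, against 4640 bp in WT, and its KO H4K20me3 peak 2963 bp, against 2932 bp in WT. On chromosome 1, from 188553451 to 188556334, the KO peaks measured 2924 bp for H3K9me3 and 2717 bp for H4K20me3, against 2884 and 3952 bp in WT. On chromosome 10, from 22190097 to 22191559, H3K9me3 was 1464 bp in KO and 1463 bp in WT, while H4K20me3 was 654 bp in KO and 1442 bp in WT.

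At other regions with both marks in KO cells, the KO peaks covered a fraction of the WT ones. On chromosome 4, from 145422680 to 145430752, H3K9me3 measured 1248 bp in KO and 8073 bp in WT, and H4K20me3 1030 bp in KO and 1878 bp in WT. On chromosome 6, from 149273755 to 149277795, H3K9me3 measured 1283 bp in 2 KO peaks and 4041 bp in WT, and H4K20me3 2265 bp in 2 KO peaks and 5076 bp in WT. These 5 are the highest-scoring regions with both marks in KO cells, and they differ from each other in how much of the WT peak was called.

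The highest-scoring region with H3K9me3 alone in KO cells lay on chromosome 12, from 20232477 to 20240604. H3K9me3 measured 4182 bp there in KO and 8128 bp in WT. Its 2 WT H4K20me3 peaks, 3554 bp in all, had no KO peak. The next 4 lay on chromosome 17 from 66309570 to 66312753, chromosome 8 from 125955664 to 125958653, and chromosome 10 from 61050323 to 61052705 and from 57693567 to 57695821. Their KO H3K9me3 lengths were 2354, 783, 633 and 4819 bp in that order, against 3184, 2990, 2383 and 2255 bp in WT. Of these 5, the last alone had a longer H3K9me3 peak in KO than in WT cells.

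The highest-scoring region with H4K20me3 alone in KO cells lay on chromosome 3, from 98228258 to 98234511. H4K20me3 measured 390 bp in KO, with a score of 54.6, and 6116 bp in WT, with a score of 2932. Chromosome 12 held 3 of these 5 regions within 10 kb of each other, from 114013620 to 114017583, from 114017729 to 114019658 and from 114021809 to 114023117. All 3 lay inside H4K20me3 peaks, whose lengths were 3982, 1951 and 3777 bp in WT. In KO cells H4K20me3 measured 692, 442 and 907 bp there, and no H3K9me3 was called. The fifth, on chromosome 15 from 79186810 to 79189863, had 493 bp of H4K20me3 in KO and 2580 bp in WT. At all 5, the KO H4K20me3 call was shorter than the WT peak.

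The highest-scoring region with neither mark in KO cells was the H3K9me3 peak of 11407 bp on chromosome 2, from 157379229 to 157390635, with 12004 bp of H4K20me3 in 3 WT peaks. A KO H4K20me3 peak lay just beyond its end, on the part of the WT H4K20me3 peak that reached past H3K9me3. The next 4 lay on chromosome 5 from 144012813 to 144018417, chromosome 8 from 71749316 to 71755932, chromosome 4 from 145415018 to 145422677 and chromosome 10 from 79200172 to 79204936. Their H3K9me3 lengths in WT were 5605, 6617, 7660 and 4765 bp in that order, and their WT H4K20me3 lengths 4189, 4644, 6082 and 7744 bp. The region on chromosome 4 ends 2 bp before the one with both marks in KO cells named above. In all, 14 regions had a KO call on their WT H4K20me3 peak that lay outside the H3K9me3 peak.

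**Figure D3:**
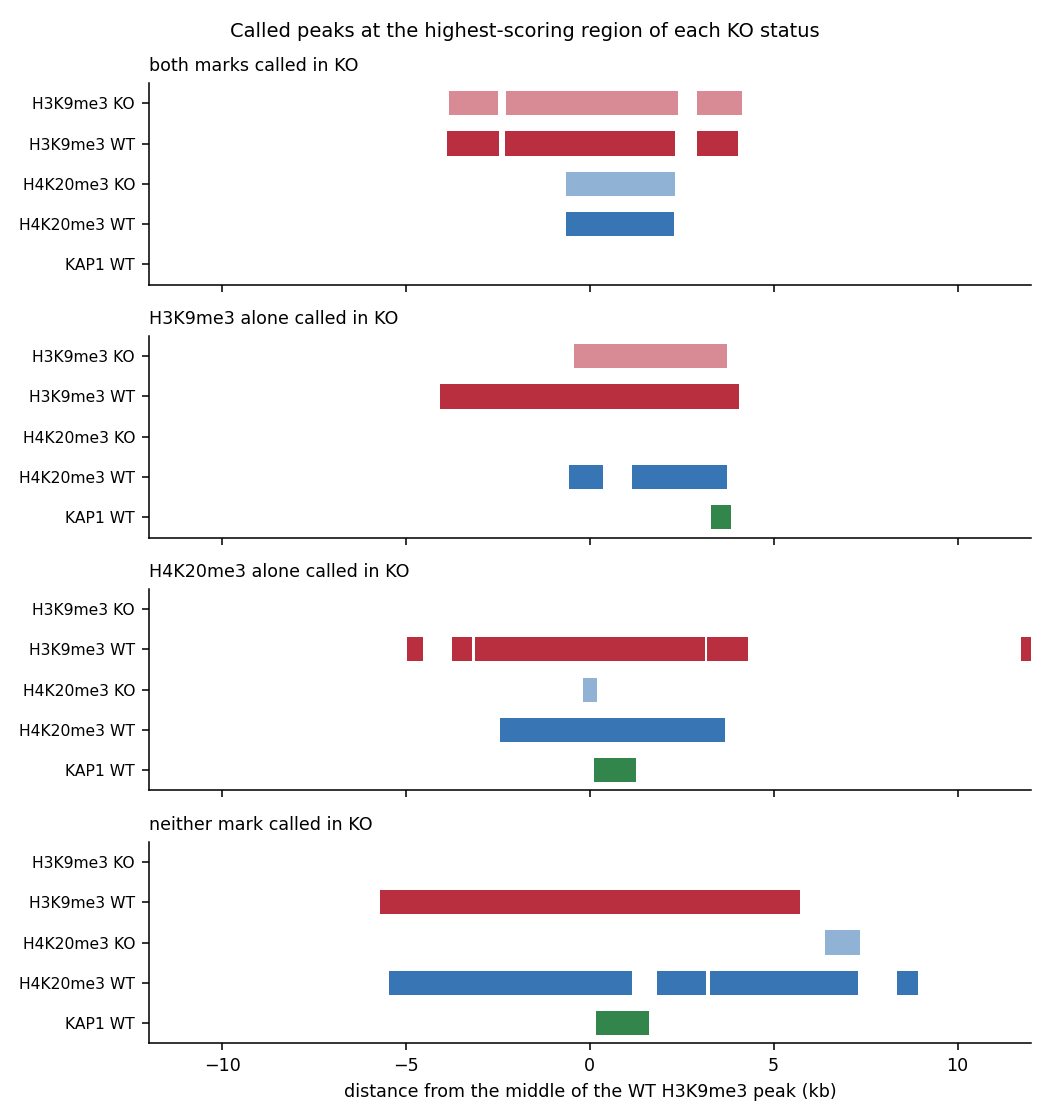
Called peaks (bars) in 5 lists around the highest-scoring region of each KO status, by distance in kb from the middle of the WT H3K9me3 peak; pale bars are KO and full bars WT. The top region has KO peaks of 4662 bp for H3K9me3 and 2963 bp for H4K20me3, and the bottom region has no KO peak on its H3K9me3 peak of 11407 bp but a KO H4K20me3 peak just beyond it.

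The 3 longest regions all lay on distal chromosome 4 and each had a different status. The longest, 15085 bp from 145709101 to 145724185, had 1521 bp of H3K9me3 and 2109 bp of H4K20me3 in KO cells. The second, 11810 bp from 146551451 to 146563260, had 882 bp of H3K9me3 and no H4K20me3. The third, 11484 bp from 145724193 to 145735676, began 7 bp after the longest and had neither. A staggered region on chromosome 8, from 56198436 to 56209066, went the other way. It scored 70.8 in the WT list and met 2 KO H3K9me3 peaks of 12016 bp in all, with the highest score of the KO list, 3225.

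Around the regions, both WT marks fell off with distance from the middle of the H3K9me3 peak in a like way. H4K20me3 peaks covered 80.6% of the middles in WT cells. At 300 bp to either side, H3K9me3 covered 64.4% and H4K20me3 65.0% in WT cells. At 500 bp to either side, H3K9me3 covered 42.7% and H4K20me3 48.5% in WT cells, at 1 kb 26.3% and 24.1%, and at 5 kb 6.70% and 5.76%. In KO cells, H3K9me3 covered 5.28% of the middles and H4K20me3 5.68%. At 5 kb these were 0.434% and 1.62% in KO cells. Around the other WT H3K9me3 peaks, H4K20me3 covered 0.390% of the middles and 0.401% at 5 kb in KO cells, and 0.934% at 5 kb in WT cells, while WT cells had none at the middles by the rule.

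**Figure D4:**
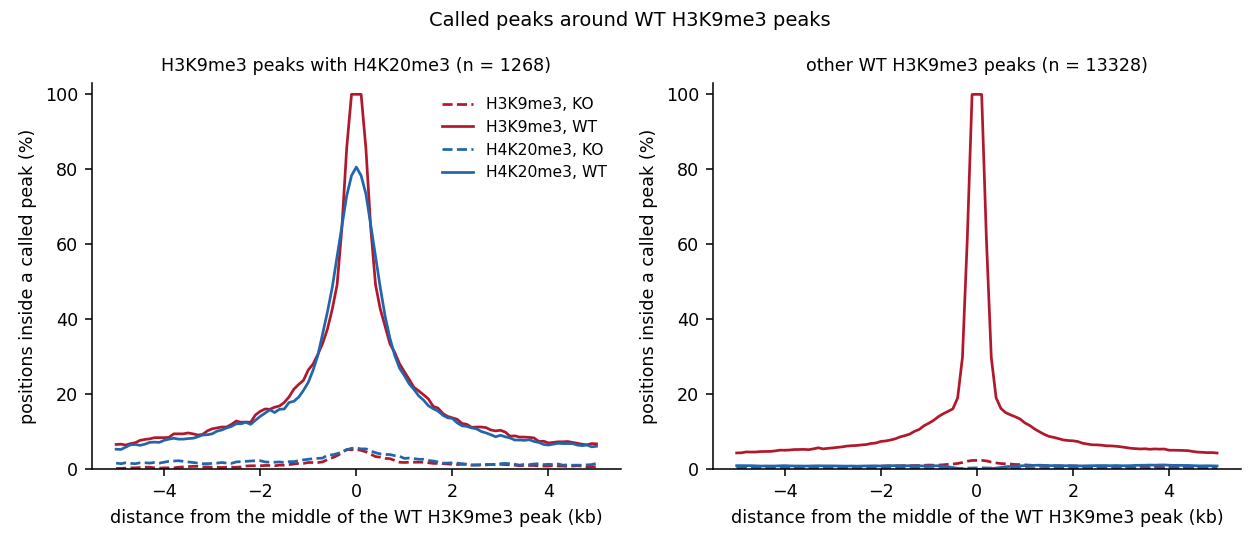
Share of positions inside a called peak (%) by distance in kb from the middle of the WT H3K9me3 peak, for peaks with H4K20me3 (left) and without it (right); dashed lines are KO, full lines WT, red H3K9me3 and blue H4K20me3. On the left, the WT curves meet near 300 bp and fall to 6.70% and 5.76% at 5 kb, while the KO curves are nowhere above 5.68%.

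H4K20me3 peaks near these regions, though clear of all H3K9me3, were also called less often in KO cells than those far away. On the regions themselves, 90 of 1197 WT H4K20me3 peaks were called again (7.52%, interval 6.09 to 9.16%). Up to 1 kb away it was 10 of 123 (8.13%, interval 3.97 to 14.4%), and over 1 to 5 kb 59 of 242 (24.4%, interval 19.1 to 30.3%). Over 5 to 10 kb it was 99 of 180 (55.0%, interval 47.4 to 62.4%), over 10 to 100 kb 1012 of 1424 (71.1%), and beyond 100 kb 6130 of 8119 (75.5%, interval 74.6 to 76.4%). Peaks nearby were also weaker, with a median WT score of 91.0 up to 1 kb away and 175 beyond 100 kb. Among peaks with a WT score of at least 100, the shares in the same order from the regions outwards were 10.4%, 18.5%, 42.3%, 65.6%, 85.7% and 88.3%. A like order was found around WT H3K9me3 peaks that carried no H4K20me3. Of WT H4K20me3 peaks over 5 kb from any region with both marks, 24 of 138 up to 1 kb from such a peak were called again in KO cells (17.4%, interval 11.5 to 24.8%), 203 of 350 over 1 to 5 kb (58.0%) and 3055 of 3941 beyond 100 kb (77.5%). Here too the nearest H4K20me3 peaks were the weakest, with median WT scores of 77.9, 147 and 168 in that order. No limit on score was applied around these peaks, so the part of score was not tested there.

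H3K9me3 did not have this order. H3K9me3 peaks without H4K20me3 were called again in KO cells at 15 of 307 up to 1 kb from a region with both marks (4.89%, interval 2.76 to 7.93%), 3 of 196 over 5 to 10 kb (1.53%) and 292 of 10559 beyond 100 kb (2.77%). KO peaks beside the regions, whether or not they lay on a WT peak, were counted next. Of the 1189 regions without KO H3K9me3, 8 had a KO H3K9me3 peak within 1 kb (0.673%) and 32 within 10 kb (2.69%). Of the 1172 without KO H4K20me3, 24 had a KO H4K20me3 peak within 1 kb (2.05%) and 237 within 10 kb (20.2%). The KO lists differ in size, with 8920 H4K20me3 and 3176 H3K9me3 peaks, so these shares do not compare the marks. The same shares around other WT H3K9me3 peaks were not computed, so they are not a trait of these regions alone.

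**Figure D5:**
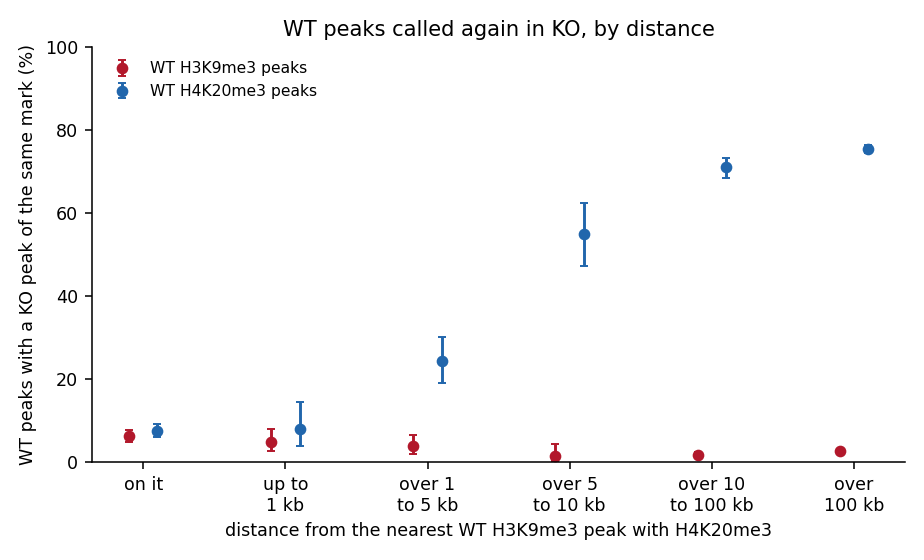
Share of WT peaks (%) called again in KO cells for the same mark, by distance from the nearest WT H3K9me3 peak that carries H4K20me3; bars are exact 95% intervals. H4K20me3 (blue) is at 7.52% on these regions, 24.4% over 1 to 5 kb away and 75.5% beyond 100 kb, while H3K9me3 (red) stays at or below 6.23%.

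KAP1 peaks lay on few of the regions. A KAP1 peak overlapped 62 of 1268 (4.89%, interval 3.77 to 6.22%), against 127 of 13328 WT H3K9me3 peaks without H4K20me3 (0.953%, interval 0.795 to 1.13%). Length moved with this, since the median was 1653 bp with a KAP1 peak and 713 bp without one. Under 500 bp a KAP1 peak lay on 10 of 344 regions (2.91%), against 30 of 8002 others (0.375%, interval 0.253 to 0.535%). From 500 to under 1000 bp it lay on 12 of 522 (2.30%, interval 1.19 to 3.98%), against 50 of 4293 (1.16%, interval 0.866 to 1.53%). From 1000 to under 2000 bp it lay on 14 of 276 (5.07%, interval 2.80 to 8.36%), against 37 of 873 (4.24%). The share was thus higher on the regions in each of these classes, with intervals that were apart only under 500 bp. From 2000 to under 5000 bp it lay on 20 of 111 (18.0%, interval 11.4 to 26.4%), against 10 of 137 (7.30%, interval 3.56 to 13.0%). At 5000 bp or more it lay on 6 of 15 (40.0%, interval 16.3 to 67.7%), against 0 of 23, a share for which the interval allows up to 14.8%. The intervals were apart in this class of few peaks too. In 50 of 64 pairs the middle of the KAP1 peak lay inside the H3K9me3 peak. In 39 of these 50 it lay under both marks (78.0%, interval 64.0 to 88.5%). H4K20me3 covered 80.6% of the middles of all 1268 in WT cells, but KAP1 was not confined to the middle of the regions. That value is thus not a matched comparison. Over all bases of the regions, H4K20me3 lay on 0.901 Mb of the 1.32 Mb with H3K9me3. Its median cover was 64.6% from 1000 to under 2000 bp, 70.8% from 2000 to under 5000 bp and 61.1% at 5000 bp or more. Whether the 78.0% differs from the share in regions of like length was not tested.

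The regions with a KAP1 peak were mostly without either mark in KO cells too. Neither mark was called at 50 of 62 (80.6%, interval 68.6 to 89.6%), against 1089 of 1206 without a KAP1 peak (90.3%, interval 88.5 to 91.9%). H3K9me3 was called in KO cells at 7 of 62 (11.3%, interval 4.66 to 21.9%), against 72 of 1206 (5.97%, interval 4.70 to 7.46%). H4K20me3 was called at 8 of 62 (12.9%, interval 5.74 to 23.9%), against 88 of 1206 (7.30%, interval 5.89 to 8.91%). The intervals overlapped for all 3 shares, and the regions with KAP1 were the longer ones, whose part was not tested.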

How the data were processed

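Chromatin was fixed for 10 min in 1% formaldehyde and sonicated to 200 to 400 bp, per the labels' protocols. The submitters' processing notes name build mm9 and the tools MACS 1.4, Bowtie2 2.2.1 and CASAVA 1.82. The sources used here give neither call parameters nor the controls of the histone calls. The deposited lists hold a chromosome, start, end, name and score per peak. The score is the authors' value, read here as a MACS score, and its meaning is inferred from the values alone. The 3 input libraries were not analysed here. Read depth is unknown.

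From these lists, overlaps of at least 1 bp, lengths and gaps were computed in Python 3.11.15 (pandas 2.3.3, numpy 2.4.6), intervals with scipy 1.17.1 and figures with matplotlib 3.10.9. The number of overlapping peaks equalled that of bedtools 2.31.1 for all 58384 peak and list pairs compared. The counting was tested on simulated data. Positions count from 1. Named regions are the highest-scoring 5 of each KO status, the 3 longest and the 3 of each layout with the longest shared stretch, on chromosomes 1 to 19, X and Y. The regions, length classes and comparisons were chosen with earlier results of these data known, and distances from the regions and status over whole loci were added after the data had been seen. No mm9 genome or annotation was used here, so base composition was not computed and no genes or sequences are given.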

Additional observations from a re-analysis of the deposited data

How the results depend on the processing

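Under 6 other settings and 1 chosen after seeing the data (KO status read over the whole locus), 22 of 33 values counted over peaks stayed within the 95% interval of the reported value, or within 1.5 times for the count of regions. Keeping peaks with scores from 100 up gave 529 regions, and equal numbers of highest-scoring peaks of each mark in KO and WT gave 534, since both use fewer peaks. The equal numbers gave H3K9me3 in KO cells at 8.61%, H4K20me3 at 10.5%, neither mark at 86.7% and H3K9me3 inside 1 H4K20me3 peak at 22.8%. An overlap of at least 50% of the H3K9me3 peak, also asked of KO peaks, gave H4K20me3 in KO cells at 6.17%. A distance of up to 1 kb, also allowed for KO peaks, gave 9.25%, with neither mark at 88.0%. H3K9me3 inside was 37.7% with 50% overlap and 22.1% with 1 kb distance. These are the same 372 peaks among 988 and 1686 regions, so the 2 shares moved only with the number of regions. The H3K9me3 share of covered bases has no interval here, since neighbouring bases are not independent, and it was 78.7% as reported, 74.7% with 50% overlap, 73.9% with 1 kb distance, 79.6% with the score of 100, 78.5% with peaks within 1 kb merged, 78.6% on chromosomes 1 to 19 and X and 82.1% with equal numbers. Apart from the smaller lists and the shares of H3K9me3 inside with 50% overlap and 1 kb distance, the cause was not tested. No paired analysis was possible because each group has 1 library. Unknown depth and call settings limit every comparison between KO and WT, and with 1 library per group genotype and library cannot be told apart.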
